A study of Mus musculus with 6 samples.

Results

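The 10 genes described here, Pecam1, Cdh5, Kdr, Flt1, Tek, Tie1, Emcn, Eng, Vwf and Esam, are core genes of endothelial cells, the cells that line blood vessels. They were taken by gene symbol from the deposited table of estimated counts, and all 10 were among its 22287 genes. The tissue was the apical part of the mandibular first molar from mice of strain C57BL/6, taken at postnatal day 7.5 for RNA sequencing. The control group was Arid1a fl/fl, whose Arid1a alleles are flanked by recombination sites, without a Cre (3 libraries, replicates 2, 3 and 5). The mutant group was Gli1-CreER;Arid1a fl/fl, which adds a tamoxifen-inducible Cre driven by Gli1, a gene active in Hedgehog-responsive cells (3 libraries, replicates 3, 4 and 5). The labels give tamoxifen at postnatal day 3.5 for both groups, so CreER and the loss of Arid1a cannot be told apart as sources of any difference. The labels do not say whether a library came from 1 animal or several. The p-values rest on the spread among libraries, and how much of it lies between single animals is not known. Xist, given below, was high and low within each group, so the libraries of a group are not all repeats of 1 sample.

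Endothelial cells are held together by VE-cadherin and related adhesion proteins, respond to VEGF and angiopoietin ligands through receptor tyrosine kinases, and store clotting factors for release into blood. In a growing tooth, vessels enter the pulp through the root apex and spread below the cells that lay down dentin. The question here was whether these genes differ between mutant and control apical tissue, and in which libraries.

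Libraries held 20453247 to 24255352 estimated counts. Levels are given as CPM, each gene's share of a library's counts scaled to a fixed sum, after TMM scaling, edgeR's correction for library composition, with factors of 0.872 to 1.11. The enamel genes Amelx, Ambn and Enam took 17.3% to 24.02% of all counts in the controls and 7.43% to 11.6% in the mutants, and this share enters every value scaled to total counts. Arid1a, the targeted gene, fell from 205 ± 3.96 to 128 ± 7.36 CPM (SD, n = 3, log2 fold change -0.68, adjusted p = 0.0129, edgeR quasi-likelihood test), and without control replicate 2 or 3 its adjusted p was 0.0506 and 0.0529. The counts do not say in which cells it was deleted. Xist was at 799 to 1298 CPM in control replicate 3 and mutant replicates 3 and 5 and at 0.130 to 2.39 CPM in the other libraries, so high and low libraries occurred in each group.

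None of the 10 endothelial genes passed the test in either direction, where 1.86% of the 17305 genes tested did (edgeR quasi-likelihood test, adjusted p under 0.05). The adjusted p-values of the 10 ran from 0.174 for Eng to 0.965 for Vwf. At an unadjusted p under 0.05 there were 2, Eng and Tek, beside 15.0% of all genes. DESeq2, limma-voom and edgeR's likelihood ratio test each called 0 as well, with 2 at an unadjusted p under 0.05. The fitted differences lay mostly on the positive side. The log2 fold change, mutant minus control, was above 0 in 9 of the 10 and in 52.0% of all genes, with a median of 0.18 (1.13-fold) over the 10 and of 0.01 over all genes. Without control replicate 2 the median over the 10 was 0.10. The highest upper bound of a 95% interval was 1.51-fold higher, for Tek, and the lowest lower bound was 0.807-fold, for Vwf. In bulk tissue, a difference in the number of endothelial cells and one in RNA per cell cannot be told apart.

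**Figure D1:**
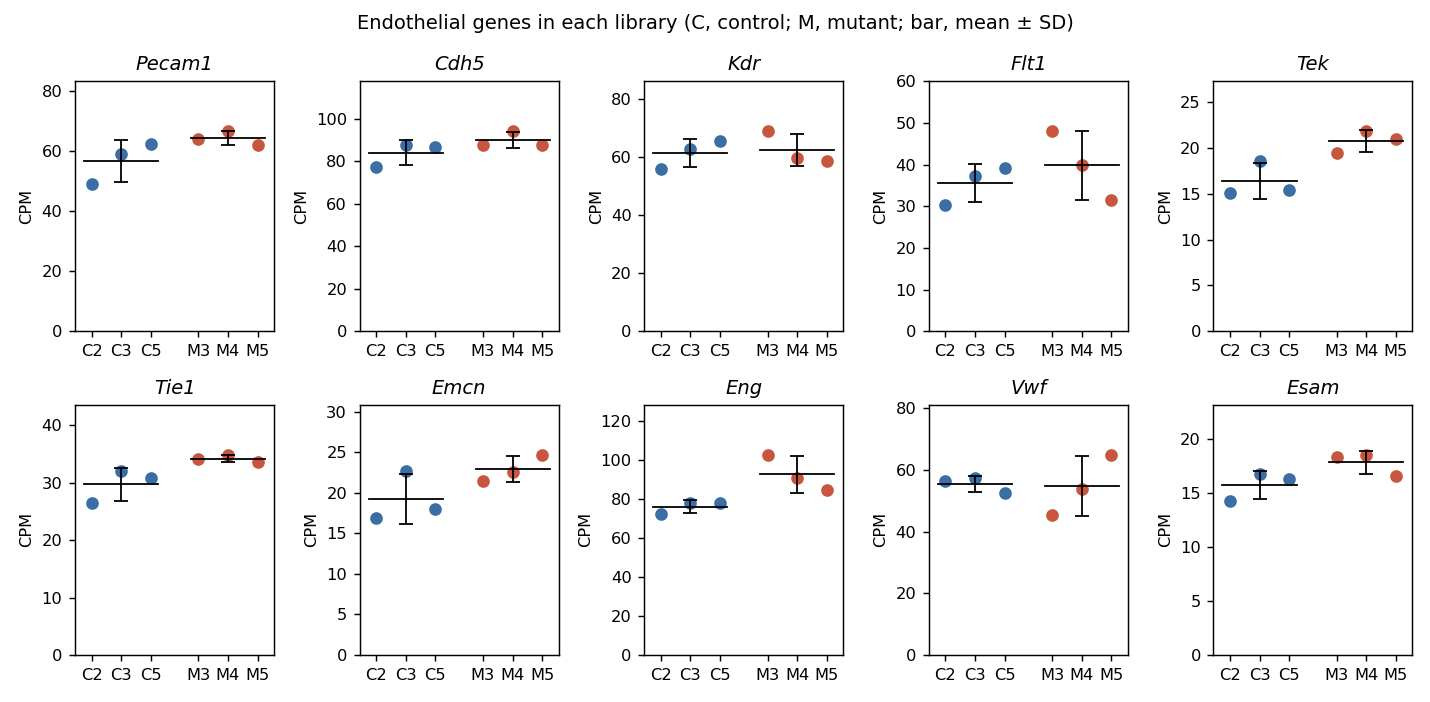
Level of each endothelial gene in CPM (vertical axis, starting at 0) in the 3 control (C) and 3 mutant (M) libraries, one point per library, with the group mean and SD as bars. Tek, Tie1 and Eng are the genes whose mutant points all lie above the control points, and Vwf in the mutants runs from 45.5 to 64.9.

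The libraries of both angiopoietin receptor genes separated, as did those of Eng, where 10.6% of all genes had every mutant above every control. None of these genes passed the test. Tek encodes Tie2, the receptor for angiopoietins that steadies vessels. It stood at 15.1, 18.6 and 15.5 CPM in control replicates 2, 3 and 5 and at 19.5, 21.9 and 20.9 CPM in mutant replicates 3, 4 and 5. Every mutant library lay above every control library, and the log2 fold change was the largest of the 10 at 0.34 (SE 0.11, 95% interval 0.08 to 0.60, adjusted p = 0.193). Tie1 encodes a related receptor that modulates signalling by Tie2. It stood at 26.5, 32.0 and 30.8 CPM in the controls and at 34.2, 34.9 and 33.6 CPM in the mutants. The groups did not overlap here either (34.2 ± 0.624 in mutants against 29.8 ± 2.88 CPM in controls, SD, n = 3). The log2 fold change of Tie1 was 0.20 (SE 0.09, 95% interval -0.0029 to 0.41, adjusted p = 0.339). Without control replicate 2 the log2 fold change of Tie1 was 0.13. The ratio of Tek to Tie1 was 0.552 ± 0.0437 in controls and 0.607 ± 0.0310 in mutants (SD, n = 3), with overlapping groups. Tek lies at chr4:94739289-94874976 on the plus strand and Tie1 at chr4:118471191-118490061 on the minus strand of mm10.

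The VEGF receptor genes showed no separation. Kdr encodes the main signalling receptor for VEGF-A. Its level was 56.0, 62.7 and 65.4 CPM in the controls and 68.9, 59.6 and 58.7 CPM in the mutants. The group means were close (61.4 ± 4.85 and 62.4 ± 5.64 CPM, SD, n = 3), with a log2 fold change of 0.02 (95% interval -0.19 to 0.24, adjusted p = 0.936), which turned to -0.03 without control replicate 2 and to -0.053 without mutant replicate 3. Flt1 encodes a VEGF receptor that also occurs as a soluble decoy. It stood at 30.4, 37.2 and 39.2 CPM in the controls and at 48.0, 39.8 and 31.6 CPM in the mutants. Mutant replicate 3 was the highest library for both genes, and mutant replicate 5 was nearly as low in Flt1 as control replicate 2, so the groups overlapped (log2 fold change 0.16, 95% interval -0.21 to 0.54, adjusted p = 0.709). With mutant replicate 3 left out, the value for Flt1 was 0.0050, and with mutant replicate 5 left out it was 0.30. Leaving out control replicate 2 gave 0.066 and leaving out control replicate 5 gave 0.25. Kdr is located at chr5:75932827-75978458 and Flt1 at chr5:147561604-147726011, both on the minus strand.

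The 250 bases before the RefSeq start are shown for these 4 receptor genes and for Eng (GRCm38.p6, 5′ to 3′ on the gene's strand), since they are the receptors whose libraries separated or did not. Capitals mark GGAAG or its reverse complement CTTCC, the core recognised by ETS factors such as Erg and Fli1, which act in endothelial cells.
Tek, chr4:94739039-94739288, plus strand: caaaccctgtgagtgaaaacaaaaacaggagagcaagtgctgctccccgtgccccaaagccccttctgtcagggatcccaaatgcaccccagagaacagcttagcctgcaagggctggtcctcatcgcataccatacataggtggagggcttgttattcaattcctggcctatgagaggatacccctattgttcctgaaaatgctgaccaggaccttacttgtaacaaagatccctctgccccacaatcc
Tie1, chr4:118489850-118490099, minus strand: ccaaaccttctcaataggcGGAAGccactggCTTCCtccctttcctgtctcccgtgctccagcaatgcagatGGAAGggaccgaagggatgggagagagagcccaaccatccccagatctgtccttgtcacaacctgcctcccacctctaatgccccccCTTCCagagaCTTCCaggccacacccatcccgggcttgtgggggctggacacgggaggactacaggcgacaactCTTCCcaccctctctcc
Kdr, chr5:75978456-75978705, minus strand: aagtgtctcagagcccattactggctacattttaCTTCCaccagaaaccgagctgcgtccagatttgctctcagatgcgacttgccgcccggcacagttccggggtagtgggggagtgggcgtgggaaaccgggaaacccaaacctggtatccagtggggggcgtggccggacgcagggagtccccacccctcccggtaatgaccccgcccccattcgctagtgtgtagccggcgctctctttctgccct
Flt1, chr5:147726012-147726261, minus strand: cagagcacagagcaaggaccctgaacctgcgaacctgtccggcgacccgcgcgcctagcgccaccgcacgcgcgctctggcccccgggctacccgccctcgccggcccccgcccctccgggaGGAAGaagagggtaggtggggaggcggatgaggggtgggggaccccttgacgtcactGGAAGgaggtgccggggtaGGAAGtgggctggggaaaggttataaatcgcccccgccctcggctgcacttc
Eng, chr2:32646345-32646594, plus strand: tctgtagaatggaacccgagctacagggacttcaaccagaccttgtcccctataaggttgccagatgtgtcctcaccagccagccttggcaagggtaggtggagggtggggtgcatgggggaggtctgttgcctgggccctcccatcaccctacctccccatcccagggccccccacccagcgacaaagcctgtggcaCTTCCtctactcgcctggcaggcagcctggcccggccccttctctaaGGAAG

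The RefSeq promoter table matched 6 of the 10 genes, these 5 and Emcn, and held no entry for Pecam1, Cdh5, Vwf and Esam. Searched on both strands, GGAAG occurred in 5 of the 6 windows, where 64.1% of the 32851 windows in the table hold it. It was found 6 times in Tie1, 3 times in Flt1, 2 times in Eng and Emcn, 1 time in Kdr and 0 times in Tek, which says only that these letters are not in this window. The RefSeq start of Tie1 lies inside the gene span printed for it, so most of its window is within that span. The Emcn and Kdr windows reach into theirs by a short stretch. GGGCGG, the letters of a GC box, occurred in Kdr (2 matches) and Flt1 (3 matches) and in 32.7% of all windows. TATAAA occurred in Flt1 alone among the 6 and in 12.4% of all windows.

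Eng encodes endoglin, a co-receptor for TGF-beta and BMP9 on endothelial cells. It had the smallest p of the 10. Its level was 72.2, 78.1 and 77.8 CPM in the controls and 103, 90.7 and 84.3 CPM in the mutants. All mutant libraries were above all controls, with mutant replicate 3 the highest (76.0 ± 3.32 and 92.6 ± 9.29 CPM, SD, n = 3, log2 fold change 0.28, SE 0.09, 95% interval 0.08 to 0.49, adjusted p = 0.174). With libraries scaled to total counts alone, Eng passed (log2 fold change 0.49, adjusted p = 0.0378), and that scaling also moved the median of all genes from 0.01 to 0.21. Eng lies at chr2:32646595-32682669. It overlaps Fpgs on the opposite strand by 61 exon bases, 1.51% of its exon length, and Fpgs was at 13.2 ± 0.561 CPM in controls and 13.3 ± 1.01 in mutants (SD, n = 3). The groups of 3 of the 10 genes, Tek, Tie1 and Eng, did not overlap, all with the mutants higher, where 10.6% of all genes tested had such groups and 21.3% had groups that did not overlap in either direction.

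**Figure D2:**
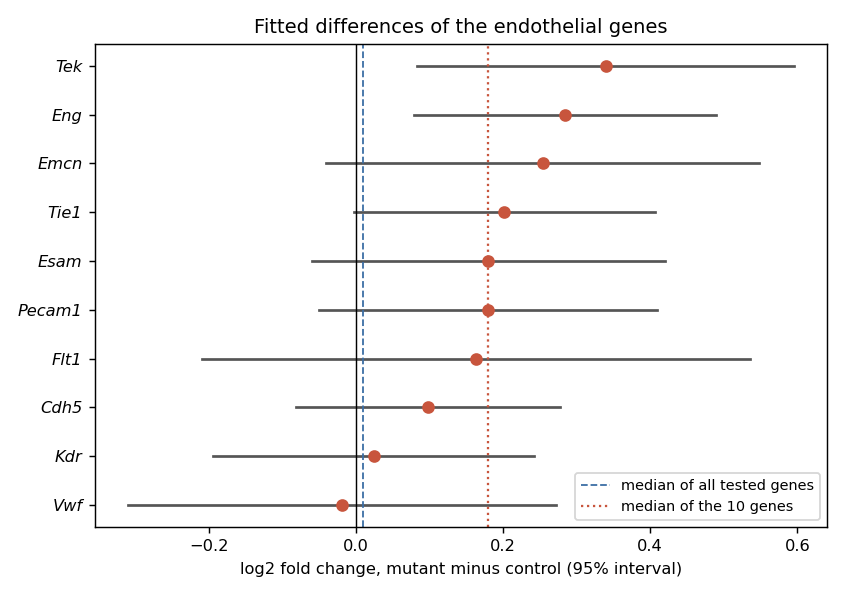
Fitted log2 fold change, mutant minus control (horizontal axis), of each endothelial gene with its 95% interval from the edgeR fit. The intervals of Tek and Eng lie above 0, those of the other 8 genes include 0, and the median of the 10 is 0.18 against 0.01 for all tested genes.

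In the fit of all libraries, the junction and adhesion genes had lower log2 fold changes than Tek and Eng. Differences between genes were not tested. Cdh5 encodes VE-cadherin, the adhesion protein of endothelial junctions. It stood at 77.2, 87.8 and 86.8 CPM in the controls and at 87.8, 94.2 and 87.5 CPM in the mutants, so the groups met at their edges (log2 fold change 0.10, SE 0.08, 95% interval -0.08 to 0.28, adjusted p = 0.624). Leaving out control replicate 2 gave 0.046 for Cdh5, and leaving out mutant replicate 4 gave 0.063. Pecam1 encodes CD31, an adhesion protein at endothelial contacts that platelets and some leukocytes also carry. Its values were 48.8, 58.8 and 62.3 CPM in the controls and 63.9, 66.5 and 62.0 CPM in the mutants. Control replicate 5 lay just above mutant replicate 5, and control replicate 2 was well below the other libraries (log2 fold change 0.18, SE 0.10, adjusted p = 0.454). Without that library the log2 fold change of Pecam1 was 0.09. Esam encodes an adhesion molecule of endothelial tight junctions. It was at 14.3, 16.8 and 16.3 CPM in the controls and at 18.4, 18.6 and 16.6 CPM in the mutants (log2 fold change 0.18, SE 0.10, adjusted p = 0.477, and 0.12 on the log2 scale without control replicate 2). Emcn encodes endomucin, a sialomucin of capillary and venous endothelium. It was at 16.9, 22.7 and 18.0 CPM in the controls and at 21.5, 22.6 and 24.7 CPM in the mutants, and control replicate 3 lay inside the mutant range (log2 fold change 0.25, SE 0.13, adjusted p = 0.409). Without that control library it was 0.40. These genes are at chr8:104101625-104144511 (Cdh5, plus strand), chr11:106654217-106750628 (Pecam1, minus), chr9:37528078-37538319 (Esam, plus) and chr3:137341067-137432185 (Emcn, plus).

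Vwf, which encodes von Willebrand factor, the clotting protein stored by endothelial cells and platelets, did not follow the other genes. It stood at 56.3, 57.3 and 52.6 CPM in the controls and at 45.5, 53.8 and 64.9 CPM in the mutants. The mutants thus spread to both sides of all controls (55.4 ± 2.51 and 54.7 ± 9.74 CPM, SD, n = 3, log2 fold change -0.02, 95% interval -0.31 to 0.27, adjusted p = 0.965), and the sign turned without mutant replicate 3 (0.10) or control replicate 3 (0.01). Flt1 showed the opposite order of the same mutant libraries, and the ratio of Vwf to Flt1 was 0.947, 1.35 and 2.06 in mutant replicates 3, 4 and 5 against 1.34 to 1.86 in the controls. Over the 6 libraries, Vwf was the single gene with a negative correlation to the mean log2(CPM + 1) of the other 9 (Pearson r = -0.35, Spearman rho = -0.31). The highest were Tie1 (r = 0.99, rho = 0.94) and Esam (r = 0.96, rho = 0.94), and Kdr (r = 0.43) and Flt1 (r = 0.51) were lower. These values are descriptions, since the libraries share their scaling and 6 points mix the groups. Vwf is at chr6:125546774-125686679. Platelet markers were also detected, and the part of platelets in the Vwf level was not tested. Of 11 platelet genes chosen, 7 were listed and 4 reached the test. Those 4 had a summed level of 14.3 to 18.3 CPM in the controls and 16.5 to 23.8 in the mutants, most of it Pf4.

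**Figure D3:**
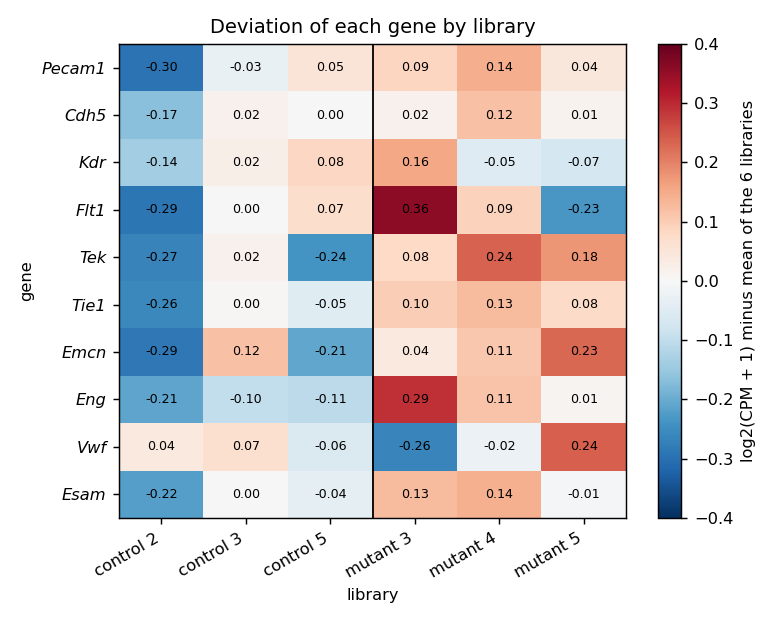
Deviation of each endothelial gene in each library from its own mean over the 6 libraries, in log2(CPM + 1), with red above and blue below the mean. Control replicate 2 is blue for every gene but Vwf, and mutant replicates 3 and 5 carry opposite colours in Flt1 and Vwf.

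Control replicate 2 was the library that stood apart. It had the lowest level of 9 of the 10 genes, all but Vwf, where 14.4% of all tested genes were lowest in it. The highest level was in a mutant library for each of the 10, in replicate 3 for 3 genes, in replicate 4 for 5 and in replicate 5 for 2. The mean log2(CPM + 1) of the 10 genes was 5.17, 5.39 and 5.33 in the controls and 5.47, 5.47 and 5.42 in the mutants. The controls therefore varied more (SD 0.114, n = 3) than the mutants (SD 0.0298, n = 3), and the difference of the group means was 0.16. Counts per gene and library ran from 284 to 2656, so counting error alone gave a coefficient of variation of at most 5.93%. The observed coefficient in the controls ran from 4.37% for Eng to 16.1% for Emcn, and in the mutants from 1.82% for Tie1 to 20.7% for Flt1. Counting error for Tie1 was 4.28% at its lowest count, 545 in control replicate 2. A spread of 1.82% over 3 libraries is below that, so it does not show that the mutants were alike.

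Levels can be compared between genes per kb of annotated exon, here in the controls. Cdh5 (20.0 ± 1.39 CPM per kb, SD, n = 3) and Eng (18.8 ± 0.821) were the most abundant and did not differ beyond their spread. Pecam1 came next at 9.10 ± 1.13. Kdr (6.80 ± 0.538) overlapped Tie1 (6.05 ± 0.585) within 1 SD, and Tie1 overlapped Esam (5.50 ± 0.464). Emcn (3.55 ± 0.570), Tek (3.48 ± 0.411) and Vwf (3.45 ± 0.157) did not differ beyond their spread, and Flt1 was lowest at 2.64 ± 0.344. The exon length pools all annotated transcripts, so a gene with long or rarely used exons, such as Flt1 with 13504 bases, is set too low by an unknown amount. In the mutants Eng (22.9 ± 2.29) and Cdh5 (21.4 ± 0.902) changed places within their spread.

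Beyond the 10 genes, 49 other endothelial genes were tested, 17 transcription factors and 32 surface, junction and signalling genes. None was called, 38 had positive log2 fold changes and the median was 0.17, against 0.01 for all genes. The mutants were above all controls for 12 of them, or 24.5%, where 10.6% of all genes were. The mutants were below all controls for 2 transcription factors and 0 surface genes, where 10.8% of all genes were. Of the 49, 24 were lowest in control replicate 2, where 14.4% of all genes were. At an unadjusted p under 0.05 there were 3 of the 17 transcription factors and 4 of the 32 surface genes, beside 15.0% of all genes. S1pr1, the sphingosine-1-phosphate receptor gene that stabilises vessels, had the smallest p of the surface genes, at 50.05, 61.1 and 53.7 CPM in controls and 77.2, 67.2 and 67.7 CPM in mutants. Its groups did not overlap (log2 fold change 0.36, SE 0.10, adjusted p = 0.122), and DESeq2 called it as the 1 call among the 49, while limma-voom and the likelihood ratio test called 0. Aplnr, the apelin receptor gene (log2 fold change 0.35, adjusted p = 0.298), and Stab1, a scavenger receptor gene that macrophages also express (0.47, adjusted p = 0.282), followed. Among the transcription factor genes, Mef2c (log2 fold change 0.31, adjusted p = 0.141), Klf4 (-0.31, adjusted p = 0.257) and Erg (0.31, adjusted p = 0.311) had the smallest p. Mef2c and Klf4 are also active outside endothelium, while Erg, at 12.1, 14.4 and 15.7 CPM in controls and 15.9, 17.1 and 19.1 in mutants, is largely endothelial in such tissue.

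**Figure D4:**
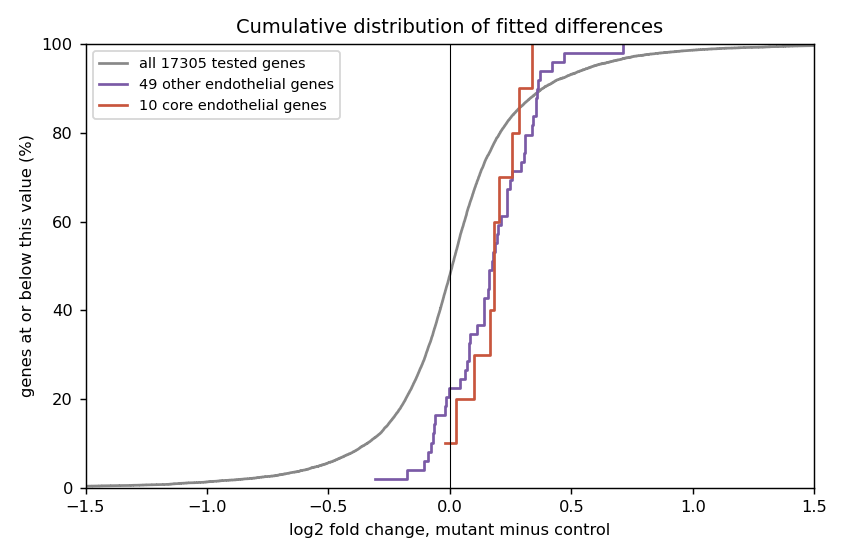
Cumulative share of genes (vertical axis, %) at or below each log2 fold change, mutant minus control (horizontal axis), for all 17305 tested genes, 49 other endothelial genes and the 10 core endothelial genes. Both endothelial curves cross 50% near 0.17 to 0.18, to the right of the curve of all genes at 0.01.

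Of the 12 VEGF and angiopoietin ligand and co-receptor genes tested, 1 rose and 11 did not pass (0.659% of all genes rose), and the median log2 fold change was 0.13. The riser was Nrp2, a co-receptor for VEGF-C and semaphorins that is carried by venous and lymphatic endothelium and by neurons and mesenchyme. Nrp2 went from 71.3, 63.6 and 61.8 CPM in the controls to 88.8, 117 and 93.3 CPM in the mutants (log2 fold change 0.60, SE 0.12, adjusted p = 0.0496). This call was kept in 1 of the 6 fits that left out a library, that without mutant replicate 3, and its adjusted p was 0.0509 with RLE scaling, within a range of 0.000324 (DESeq2) to 0.347 (erythroid level as a term) over 23 alternatives. Angpt2, an angiopoietin made by endothelial cells that opposes Angpt1, was at 4.33, 4.35 and 4.79 CPM in controls and 7.03, 6.46 and 6.19 CPM in mutants. It did not pass although its groups did not overlap (log2 fold change 0.55, SE 0.14, adjusted p = 0.101). The ratio of Angpt2 to Angpt1 was 0.104, 0.117 and 0.126 in the controls and 0.176, 0.130 and 0.150 in the mutants, again without overlap. Vegfa, the main ligand of Kdr and Flt1, stood at 48.2, 47.8 and 55.9 CPM in controls and 64.8, 46.5 and 42.4 CPM in mutants (log2 fold change 0.02, adjusted p = 0.973). Mutant replicate 3 was the highest library for Vegfa as it was for Kdr and Flt1.

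Lists for vessel types gave 2 calls. Of 10 arterial genes none was called (median 0.10), and at an unadjusted p under 0.05 there was 1, Hey2 (4.35 ± 0.0145 and 3.09 ± 0.449 CPM, SD, n = 3, adjusted p = 0.226). Of all genes, 15.0% had an unadjusted p under 0.05. Of 6 venous genes 1 rose, which was Nrp2 again (median 0.28). Of 6 lymphatic genes tested 1 rose and 5 did not pass (median 0.15). The riser was Reln, which encodes the secreted protein reelin and is also expressed outside lymphatic vessels, at 4.77, 3.51 and 3.54 CPM in controls and 8.19, 7.42 and 7.46 CPM in mutants. Its groups did not overlap (log2 fold change 0.96, SE 0.16, adjusted p = 0.0363). The Reln call was lost in each of the 6 fits that left out 1 library (adjusted p = 0.0532 to 0.141). The lymphatic factor gene Prox1 was at 1.04 ± 0.287 CPM in controls and 1.197 ± 0.284 in mutants (SD, n = 3, adjusted p = 0.833). Of 7 genes of sprouting tip cells none was called (median 0.34), with 3 at an unadjusted p under 0.05, Angpt2, Adm (2.32 ± 0.437 and 4.07 ± 0.808 CPM, SD, n = 3, adjusted p = 0.135) and Cxcr4 (6.14 ± 1.77 and 9.31 ± 0.705 CPM, adjusted p = 0.211). DESeq2, limma-voom and the likelihood ratio test called 0 arterial and 0 tip cell genes as well.

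Pericytes and smooth muscle cells, the mural cells around vessels, were covered by 13 genes, of which 1 rose and 12 did not pass (median -0.00, range -0.35 to 1.01). The riser was Myh11, the smooth muscle myosin gene, at 11.7, 9.78 and 9.80 CPM in controls and 19.0, 24.8 and 15.5 CPM in mutants. The groups did not overlap (log2 fold change 0.92, SE 0.18, adjusted p = 0.0499). The call was kept in 1 of the 6 fits without a library, that without mutant replicate 5. The other contractile genes Tagln (log2 fold change 0.65, adjusted p = 0.106), Acta2 (0.53, adjusted p = 0.200) and Cnn1 (1.01, adjusted p = 0.248) did not pass the quasi-likelihood test. DESeq2 and the likelihood ratio test each called 2 genes of the list, Myh11 and Tagln, and limma-voom called 0. Of the pericyte genes, Pdgfrb was at 124 ± 4.97 and 122 ± 6.20 CPM and Rgs5 at 251 ± 19.8 and 251 ± 6.98 CPM in controls and mutants (SD, n = 3, adjusted p = 0.915 and 0.991). Kcnj8 had a log2 fold change of -0.34 (adjusted p = 0.401), and Cspg4 had 0.15 (adjusted p = 0.447) with every mutant library above every control.

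By mean log2(CPM + 1), the macrophage and Schwann cell lists lay higher in every mutant than in every control library. The odontoblast list lay lower in every mutant library, and the erythroid and dental epithelium lists overlapped between the groups. The part of these cell types in the endothelial values was not tested beyond the models with such a level as a term. The 11 macrophage genes all had positive log2 fold changes (median 0.38), with a summed level of 315 to 418 CPM in controls and 428 to 570 in mutants, and 1 rose, the lysosomal gene Cd68 (12.4 ± 1.33 and 18.7 ± 1.31 CPM, SD, n = 3, adjusted p = 0.0498, called in 0 of the 6 fits without a library). DESeq2 and the likelihood ratio test each called 3 macrophage genes higher, Cd68, C1qb and C1qc, and limma-voom called 0. The 7 erythroid genes tested summed to 1423 to 1949 CPM in controls and 2367 to 5513 in mutants (median 1.06). None was called, with 5 at an unadjusted p under 0.05, beside 15.0% of all genes. DESeq2 and the likelihood ratio test each called 4 erythroid genes higher and limma-voom 0. Of 10 dental epithelium genes, 1 fell, Amelx, the amelogenin gene (log2 fold change -1.59, adjusted p = 0.0470), 0 rose and the median was -0.28 (1.20% of all genes fell). DESeq2 and the likelihood ratio test each called 4 of them lower, Amelx, Ambn, Enam and Krt17, and limma-voom 2, Amelx and Enam. Amelx was called in 0 of the 6 fits without a library (adjusted p = 0.0799 to 0.123). Of 6 Schwann cell genes (median 0.42) and 7 odontoblast genes (median -0.13) none was called, with 3 and 2 at an unadjusted p under 0.05, and DESeq2 and the likelihood ratio test each called 2 Schwann cell and 0 odontoblast genes, limma-voom 0 of both. With the macrophage level as a term, an alternative chosen after seeing the data, the 10 endothelial genes had a median of 0.31. With the epithelial level it was 0.27 and with the erythroid level 0.19. In each of these models 0 of the 10 passed. Of all genes, 0 passed with the macrophage, 9 with the erythroid and 188 with the epithelial term. The count of 0 among the 10 therefore says little for the macrophage and erythroid terms.

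**Figure D5:**
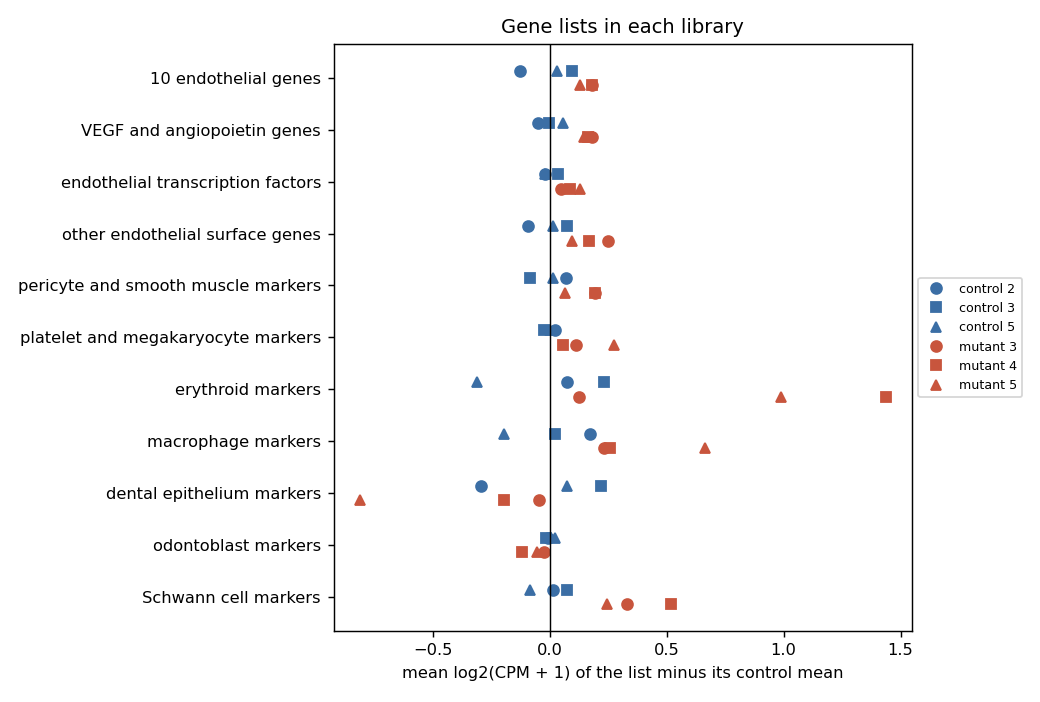
Mean log2(CPM + 1) of each gene list in each library, relative to the mean of the 3 control libraries (horizontal axis), with blue for controls, red for mutants and a symbol for the replicate. The 10 endothelial genes differ by 0.16 between the group means, the macrophage markers by 0.39 and the erythroid markers by 0.85.

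Among all genes of at least 5 CPM, the 8 outside the list whose log2(CPM + 1) followed the mean of the 10 endothelial genes most closely over the 6 libraries were Gabpa, Retreg2, Otud6b, Aplnr, Met, Cldn5, Cdh13 and Gna13 (Pearson r from 0.98 to 0.99, Spearman rho from 0.89 to 1). Aplnr, Cldn5, the endothelial claudin gene, and Cdh13, a cadherin gene of vessels and other cells, are known from endothelium. Of the 12110 genes compared, 0.875% had an r of at least 0.9, and of 41 other endothelial genes 8 did.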

How the data were processed

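RNA of apical mandibular molar tissue was sequenced as single-end reads of 75 cycles, per the labels' protocols. Per the submitters' processing notes, the tools included STAR 2.6.1d and Partek on mm10, with roles not given. The sources used here do not state strand handling or the annotation release. The authors deposited expected counts, estimated per gene and not always whole, for 22287 genes, none summing to under 10. The authors also deposited a normalized signal table of 18665 genes, which equals the count plus 1 times 1 factor per library and served for an alternative. Gene starts in the files match GENCODE M21 for the 10 genes, and their ends were taken from it.

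Counts were rounded, filtered with filterByExpr (17305 genes left), scaled by TMM and tested with edgeR 4.0.16 in R 4.3.3 (quasi-likelihood, Benjamini-Hochberg over all genes tested, called at an adjusted p under 0.05). Alternatives were other scalings, filters, thresholds and pseudocounts, DESeq2 1.42.0, limma-voom (limma 3.58.1), the likelihood ratio test, each library left out, a replicate block and cell type or Xist levels as terms. Members and lists were chosen with earlier results of these data known. Named genes are the 10, Arid1a, called list genes, up to 3 genes per list with the smallest p, and the 8 closest in pattern, and any other gene was picked with its values in view. Libraries within a group differed by more than counting noise (chi-square per degree of freedom 24.5 to 45.1).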

Additional observations from a re-analysis of the deposited data

How the results depend on the processing

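The call of 0 of the 10 endothelial genes held in 22 of 23 alternatives, and with library totals alone it was 1. Some of these alternatives called few of all genes, as given below, so a count of 0 says little in them. Over 230 values of single endothelial genes, 221 kept their direction and side of the threshold. Those that changed sign were Kdr without control replicate 2 (-0.03), without mutant replicate 3 (-0.053) and with the replicate block (-0.0098), and Vwf with upper-quartile factors (0.0016), library totals alone (0.19) or totals without Amelx, Ambn and Enam (0.0071), and without control replicate 3 (0.01) or mutant replicate 3 (0.10). Kdr ranged from -0.053 to 0.080 and Vwf from -0.16 to 0.10 over the fits that left out 1 library. The median of the 10 was 0.39 with library totals, 0.069 with the replicate block, 0.27 with the epithelial and 0.31 with the macrophage level as a term, and 0.10 to 0.23 with 1 library left out. Relative to all genes it was 0.17 under each of the scalings. All genes called numbered 322, and 520 with library totals (79.0% higher, against 35.4%), 851 with DESeq2, 819 with the likelihood ratio test, 672 at an adjusted p under 0.1, 188 with the epithelial, 71 with the Xist, 9 with the erythroid and 0 with the macrophage term, 90 with the replicate block and 11 to 243 with 1 library left out, where the lowest was without control replicate 2. The macrophage term and the totals without enamel genes were chosen after seeing the data. The cause of these changes was not tested. Replicate numbers 3 and 5 occur in both groups, with correlations of deviations from the group mean of 0.32 and -0.17. Pairs with different numbers ran from -0.53 to 0.34. With so few libraries these values cannot show whether equal numbers share more than a number, so the block is an alternative. Each group has 3 libraries, which limits what can be called. The intervals above are per gene and unadjusted, so they give sizes compatible with the data and not the smallest size that could be called.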

Other observations

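Some vascular genes varied more within a group than between groups, and they were picked after their values were seen. Angpt4, an angiopoietin gene, was at 21.7, 36.8 and 49.9 CPM in the controls and 35.2, 17.2 and 40.9 CPM in the mutants (adjusted p = 0.839, edgeR quasi-likelihood test). Cd300lg, a gene of capillary endothelium, stood at 2.48, 3.93 and 6.10 CPM in the controls and 7.38, 2.65 and 2.99 CPM in the mutants. Esm1, which marks sprouting tip cells, was at 0.778, 1.73 and 1.90 CPM in the controls and 2.67, 0.737 and 0.571 CPM in the mutants. Lyve1, a gene of lymphatic vessels and some macrophages, ranged from 11.7 to 26.2 CPM in the controls and from 13.7 to 23.4 CPM in the mutants. Mutant replicate 3 had the highest level of Cd300lg and Esm1, as it did of Vegfa, Kdr and Flt1.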
